A study of Mus musculus with 12 samples.

Results

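The genes described here are those whose names assign them to the potassium channel subunits of the mouse, the Kcn genes. They were taken as every gene whose symbol is Kcn followed by the letters of a subfamily and a number, which gave 92 of the 55491 genes in the tables, in 20 subfamilies. Of the 92 genes, 27 from 16 subfamilies passed a filter on low counts and could be tested, and 65 did not.

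The genes were followed in PT-22, a line of mouse kidney proximal tubule epithelial cells with the genotype Pax2-/-, Pax8 fl/fl, Rosa-CreERT2. All 4 groups carry this genotype, so the control cells are also labelled Pax2-/-, hold the loxP-flanked Pax8 alleles and express the inducible Cre from the broadly active Rosa locus. The control group was untreated, and the other groups received 1 µM 4-hydroxytamoxifen, which activates the Cre, for 2 days and were collected at 2, 6 or 12 days. The question was what loss of the kidney transcription factor PAX8 does to gene expression. Each group held 3 libraries, lettered A, B and C. There was no vehicle-treated group and no untreated group of a later day, so the drug, Cre activity, time in culture and PAX8 depletion cannot be told apart. All cells are of 1 line. Separate cultures are not stated for the libraries within a group, so the p-values reflect library-to-library spread alone, which may be technical.

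Potassium channels let potassium ions leave the cell and so set the membrane voltage. In the proximal tubule, channels of the basolateral membrane return the potassium that the sodium pump takes up, which keeps up the voltage that drives sodium-coupled uptake from the urine. Pore-forming subunits include inward rectifiers (Kcnj), tandem-pore leak channels (Kcnk) and voltage-gated channels (Kcna to Kcnd, Kcnh and Kcnq). Others form channels opened by calcium or sodium (Kcnma, Kcnn, Kcnt). Accessory subunits (Kcnab, Kcne, Kcnip, Kcnmb) alter the gating and traffic of channels.

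PolyA RNA was sequenced, and library totals ran from 4326667 to 11654959 counts. On the first principal component, with 62.8% of the variance, the libraries separated by group. Pax8 had 225 CPM ± 3.46 in control, then 402 ± 51.0 at day 2, 256 ± 10.9 at day 6 and 242 ± 10.5 at day 12. CPM are counts scaled to library size, and here and below the value after ± is the SD over the 3 libraries of a group. Pax8 was higher at day 2 (adjusted p = 5.59e-12) and day 6 (adjusted p = 0.0181), and its value at day 12 gave an adjusted p of 0.189. The counts cover the whole gene and not the deleted part alone, so they check neither the deletion nor the labels, and groups are called here as labelled. In bulk RNA, fewer cells of a type and less RNA per cell cannot be told apart.

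The member with the largest change was Kcnj16, and the next Kcn gene on the chromosome, Kcnj2, changed in the opposite direction. Both encode inward rectifiers. Kcnj16 encodes a subunit that forms channels with the product of Kcnj10 in the basolateral membrane of renal tubule cells, and Kcnj2 encodes the strong inward rectifier known from muscle and heart. In GENCODE M21 (GRCm38) both lie on the plus strand, Kcnj16 at chr11:110968033-111027968 and Kcnj2 at chr11:111066164-111076821, with 38.2 kb between them. The start regions of both, and that of Kcne2, the accessory subunit gene with the largest rise, are shown because they belong to the members that moved most. Each runs from 250 bases before to 50 bases after an annotated start (RefSeq, GRCm38.p6), and capitals mark matches to the motifs named below them. The windows are chr11:110967783-110968082, chr11:111065914-111066213 and chr16:92292139-92292438, all on the plus strand.
Kcnj16: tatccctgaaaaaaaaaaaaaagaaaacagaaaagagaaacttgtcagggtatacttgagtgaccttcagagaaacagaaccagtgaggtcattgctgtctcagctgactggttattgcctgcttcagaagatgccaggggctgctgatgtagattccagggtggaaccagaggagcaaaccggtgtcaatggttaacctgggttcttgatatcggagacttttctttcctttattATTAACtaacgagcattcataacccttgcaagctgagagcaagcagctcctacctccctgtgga
Kcnj2: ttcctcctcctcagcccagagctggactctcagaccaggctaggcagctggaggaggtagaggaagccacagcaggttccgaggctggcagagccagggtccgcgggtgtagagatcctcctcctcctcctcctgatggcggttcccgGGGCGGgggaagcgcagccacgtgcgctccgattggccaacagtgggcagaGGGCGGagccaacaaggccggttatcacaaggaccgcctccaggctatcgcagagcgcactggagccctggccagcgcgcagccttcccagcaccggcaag
Kcne2: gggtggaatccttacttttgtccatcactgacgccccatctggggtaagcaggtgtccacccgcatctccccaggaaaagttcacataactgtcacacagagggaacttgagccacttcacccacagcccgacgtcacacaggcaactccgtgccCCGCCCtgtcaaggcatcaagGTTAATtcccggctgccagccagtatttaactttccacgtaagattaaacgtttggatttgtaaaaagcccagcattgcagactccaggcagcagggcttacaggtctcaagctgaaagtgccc
The Kcnj16 window held 3 CpG dinucleotides at 44.3% GC, the Kcne2 window 9 at 53%, and the Kcnj2 window 18 at 66.7%. The medians over all 32851 windows of the table were 7 CpG and 52.7% GC. The motifs spelled out here were searched on both strands. The HNF1 motif GTTAAT was found in the Kcnj16 and Kcne2 windows and in 7.1% of all windows. The GC box GGGCGG was found in the Kcnj2 and Kcne2 windows and in 35.7% of all windows. Of the 29 windows of the 19 tested members that the table holds, 17 had a GC box, 3 the TEAD motif GGAATG (14.7% of all windows), 1 the AP-1 motif TGACTCA (5.2%) and 0 the PAX core GCGTGAC (2.09%). Kcnj16 has 4 annotated starts and Kcne2 has 2, and the most upstream is shown. The other Kcnj16 windows held no HNF1 motif, and the most downstream of them held a GC box. The other Kcne2 window held none of these motifs. Which start is used in these cells was not tested. A match is a description of these letters and not evidence of binding.

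Kcnj16 had 95.2, 83.7 and 86.5 CPM in the control libraries A, B and C. It had 9.39, 8.42 and 9.82 at day 2, then 0.596, 0.553 and 0.533 at day 6 and 0.467, 1.01 and 0.308 at day 12. Every treated library lay below every control library, and every library of days 6 and 12 lay below every library of day 2. The ratio of control to treated CPM was 9.41 at day 2, 157 at day 6 and 151 at day 12, with 15 counts left over the 3 libraries of day 6 and 16 over those of day 12, against 2259 in control. The log2 fold changes were -3.24 ± 0.11 (SE), -7.26 ± 0.17 and -7.20 ± 0.17, with adjusted p of 5.07e-22, 1.47e-27 and 1.03e-27 (edgeR quasi-likelihood test, Benjamini-Hochberg over 13513 genes). Without library B of day 12, which held the highest value of its group, the day 12 change was -7.80.

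Kcnj2 had 0.346, 0.277 and 0.209 CPM in control and 0.272, 0 and 0.598 at day 2, which rests on 7 and 9 counts. It had 5.96, 6.85 and 4.80 CPM at day 6 and 11.1, 11 and 8.83 at day 12. Day 2 overlapped control, whereas every library of day 6 lay above both, and every library of day 12 above day 6. On the log2 scale the change was 4.36 ± 0.38 (SE) at day 6 (adjusted p = 6.79e-12) and 5.15 ± 0.35 at day 12 (adjusted p = 7.90e-15). It rose again from day 6 to day 12 by 0.80 ± 0.20 (adjusted p = 0.00340, with 3.69e-04 to 0.252 over the alternative settings). From day 2 to day 6 it rose by 3.90, or by 4.99 without library C of day 2. On a TPM scale with 1 added before the logarithm, which understates the change of low genes, the rises against control came to 1.37 and 1.90.

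Kcnj10, a partner of Kcnj16, had 1.96, 0.830 and 2.20 CPM in control and 1.77, 3.04 and 3.16 at day 2. It had 4.87, 4.53 and 4.00 at day 6 and 7.58, 4.94 and 7.60 at day 12. Day 2 overlapped control, and all libraries of days 6 and 12 lay above both. The fitted log2 change was 1.38 ± 0.29 (SE) at day 6 (adjusted p = 1.58e-04) and 1.96 ± 0.28 at day 12 (adjusted p = 2.71e-07). Per transcript length, Kcnj16 was the more abundant of the partners in control, with 39.3 TPM ± 3.64 against 0.480 ± 0.221 for Kcnj10. At day 6 the order was the reverse, with 0.263 ± 0.0153 for Kcnj16 and 1.38 ± 0.127 for Kcnj10. The ratio of Kcnj10 to Kcnj16 in TPM was 0.00655 to 0.0159 in the control libraries, 0.0710 to 0.229 at day 2, 4.96 to 5.38 at day 6 and 2.23 to 16.1 at day 12. Whether the products of Kcnj10 and Kcnj16 pair in these cells was not tested. Kcnj4, another strong inward rectifier, was the member of this class that passed no test, at 5.54 CPM ± 1.11 in control and 4.74 ± 0.569 at day 12 (log2 fold change -0.22 ± 0.21 (SE), adjusted p = 0.391).

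**Figure D1:**
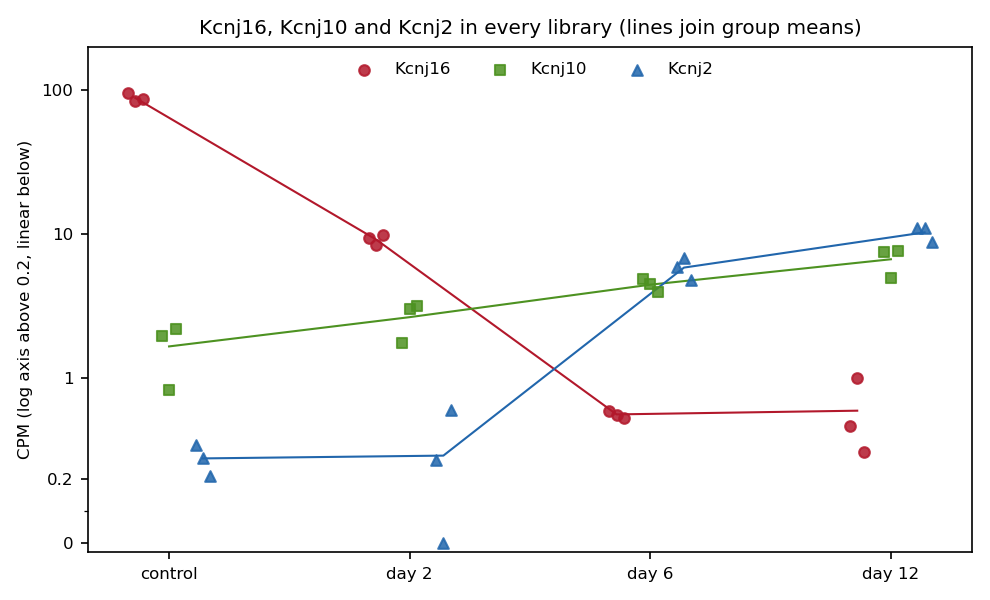
CPM of Kcnj16 (circles), Kcnj10 (squares) and Kcnj2 (triangles) in each of the 12 libraries by group, on an axis that is logarithmic above 0.2 and linear below, with lines joining group means. Kcnj16 goes from 88.5 CPM in control to 0.561 at day 6, while Kcnj2 goes from 0.277 to 5.87 and Kcnj10 from 1.66 to 4.47.

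Over the 27 tested members, 10 changed against control at day 2, of which 3 were higher (Kcnh2, Kcnn3, Kcnt1) and 7 lower (among them Kcnj16, Kcnk1, Kcnma1 and Kcng3). This is 37.0% of the tested members, where 21.2% of all tested genes were called, 10.3% higher and 10.9% lower. At day 6, 7 were higher (26.7% of all tested genes were) and 14 lower (27.6%), together 77.8% of the members against 54.3% of all tested genes. At day 12, 6 were higher (26.1%) and 16 lower (26.6%), together 81.5% against 52.8%. Changes of at least 2-fold were called in 6 members at day 2 (4.31% of all tested genes), 15 at day 6 (13.3%) and 15 at day 12 (13.7%). The median log2 fold change of the members was -0.14, -0.30 and -0.83 on the 3 days, where the median of all tested genes was between -0.01 and 0.00. Across the 4 groups, 23 of 27 members differed, 85.2% against 65.1%. The 3 comparisons against control share the control libraries and are not independent.

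Between treated days, 4 members were higher (22.6% of all tested genes were) and 13 lower (22.3%) at day 6 than at day 2, together 63.0% against 44.9%. At least 2-fold changes were called there in 9 members (7.57% of all tested genes). At day 12 against day 6, 3 were higher and 5 lower, together 29.6% against 22.0%, with 2 of at least 2-fold (2.00%). Deposited TPM, tested with limma, moved the balance of directions for all genes. At day 6 against control, 3614 genes were higher and 3729 lower on counts, and 3537 higher and 2181 lower on TPM. At day 6 against day 2 the split was 3055 to 3007 on counts and 3372 to 1383 on TPM, where the median of all genes shifted by 0.12, and at day 12 against day 6 it was 1482 to 1489 and 496 to 883. For the members, TPM gave 1 higher and 5 lower at day 2, 6 and 10 at day 6, and 6 and 15 at day 12. For day 6 against day 2 it gave 3 higher and 7 lower, and for day 12 against day 6 it gave 1 higher and 3 lower.

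**Figure D2:**
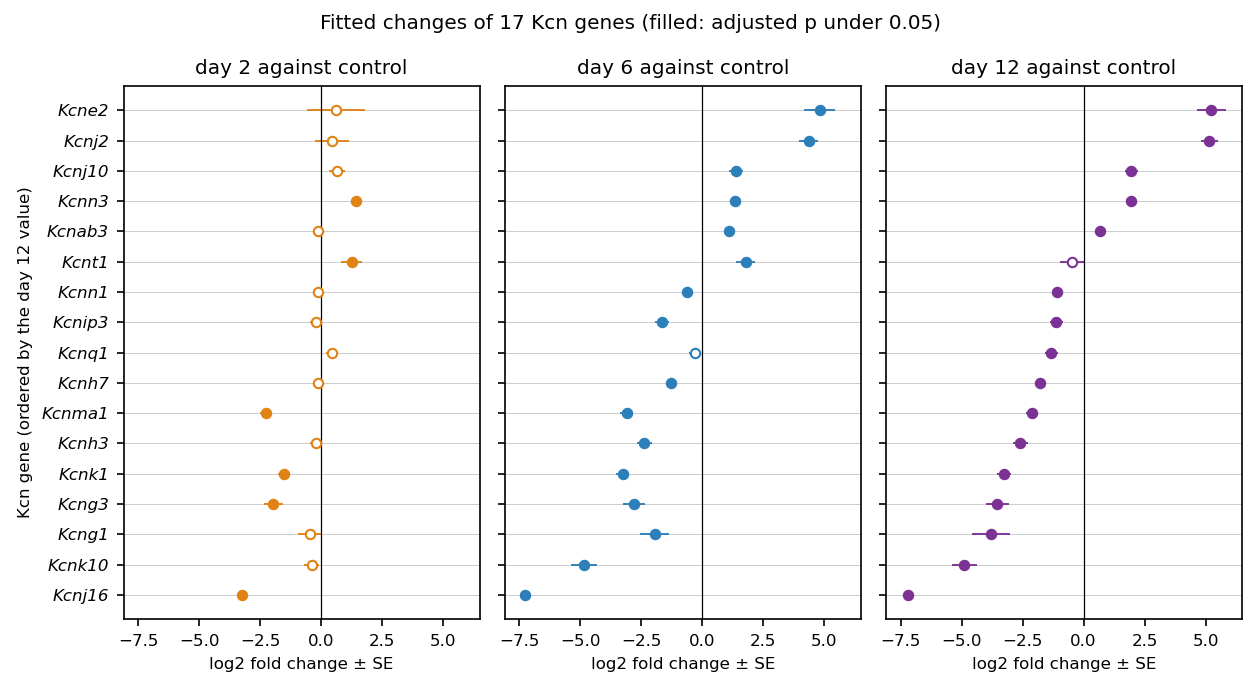
Log2 fold change ± SE of the 17 members with a called change of at least 2-fold on any day, against control at day 2, day 6 and day 12, ordered by the day 12 value, with filled points for adjusted p under 0.05 (edgeR quasi-likelihood test). The range at day 12 runs from -7.20 for Kcnj16 to 5.23 for Kcne2, with 11 filled points below 0 and 5 above.

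Markers of the labelled tissue and of other cell types moved over the same days, and their part in the changes of the members was not tested. Of 25 proximal tubule markers, 12 were tested, and 9 fell and 1 rose on each day, where 10.9%, 27.6% and 26.6% of all tested genes fell at days 2, 6 and 12 and 10.3%, 26.7% and 26.1% rose. Their summed level was 1079.5 to 1211 TPM in control, 716 to 808 at day 2, 726 to 894 at day 6 and 429 to 551 at day 12. This sum includes Aqp1, the 1 marker that rose, from 173 CPM ± 3.37 in control to 659 ± 101 at day 12. Its highest TPM was 111 in control, 778 at day 6 and 474 at day 12. Aqp1 thus made up most of the later sums, which understate the fall of the other markers. The 9 that fell were Anpep, Cdh16, Cdh6, Ggt1, Hnf4a, Lrp2, Slc4a4, Slc6a18 and Slc6a19 on each day. Among them, Cdh16 went from 1103 CPM ± 53.5 in control to 37.9 ± 3.67 at day 12. Anpep went from 114 ± 2.75 to 7.11 ± 0.522, and Slc6a18 from 71.1 ± 2.24 to 0.299 ± 0.146. Slc34a1, Slc5a2, Slc5a12, Slc7a9 and Kap, which mark mature proximal tubule, were at 0 in all libraries. Of 12 fibroblast and smooth muscle markers, 8 were tested, and 4 rose at day 2, 6 at day 6 and 6 at day 12, while 1 fell at day 2 and 1 at day 6, against the same shares of all genes. Their sum was 60.5 to 63.7 TPM in control and 72.2 to 115 at day 2. It was 123 to 161 at day 6 and 383 to 487 at day 12. The 6 that rose at days 6 and 12 were Acta2, Dcn, Des, Myh11, Pdgfrb and Tagln. Dcn was the one that fell at day 2, and Cnn1 the one that fell at day 6. The listed genes Pdgfra and Col3a1 were at 0 in all libraries. Summed neuron markers went from 18.7 to 20.4 TPM in control to 34.5 to 36.9 at day 12, with Stmn2, Nefl and Gap43 at 0. The 2 tested genes of that list moved apart, Syt1 from 6.67 CPM ± 1.46 to 79.0 ± 2.56 at day 12 (adjusted p = 5.64e-24) and Tubb3 from 17.9 ± 0.846 to 8.92 ± 1.58 (adjusted p = 7.43e-07). Leukocyte markers summed to 28.5 to 36.6 TPM in control and 39.7 to 41.9 at day 12 (Itgam and Cd3e at 0), and endothelial markers to 9.49 to 14.2 and 14.0 to 15.2 (Cdh5 and Kdr at 0). Thick limb and distal tubule markers summed to 41.4 to 51.4 and 39.6 to 44.8, and collecting duct markers to 5.46 to 10.3 and 3.78 to 5.25. At day 12, 3 of 4 tested leukocyte markers rose and 1 fell, 1 of 2 endothelial markers rose, 2 of 3 thick limb and distal markers rose and 1 fell, and 2 of 3 collecting duct markers fell.

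All 3 tested tandem-pore genes were lower at days 6 and 12, but by very different amounts. Kcnk1 encodes a weakly rectifying leak channel found in kidney tubules. It had 10.7, 8.72 and 10.2 CPM in control, then 4.08, 3.04 and 3.16 at day 2, 0.994, 0.663 and 1.47 at day 6 and 1.63, 0.786 and 0.719 at day 12. Every treated library lay below every control library, and days 6 and 12 lay below day 2. The log2 fold changes were -1.53 ± 0.23 (SE), -3.27 ± 0.28 and -3.25 ± 0.28, with adjusted p of 3.67e-06, 3.51e-12 and 2.97e-12. Kcnk10 encodes a leak channel opened by stretch and lipids. It had 3.34, 3.18 and 4.39 CPM in control and 3.26, 2.34 and 2.73 at day 2, then 0.199, 0.111 and 0 at day 6 and 0.117, 0 and 0.205 at day 12. Day 2 overlapped control and did not pass the test (adjusted p = 0.447). Control held 94 counts and days 6 and 12 held 3 each, which gives scaled ratios of 32.7 (10.9 to 162, 95% counting interval) and 33.5 (11.1 to 165). These falls had adjusted p of 1.58e-09 and 1.22e-09. The fitted log2 fold change at day 6 was -4.86, or -5.61 without library A of that day, and at day 12 -4.88, or -5.67 without library C of that day.

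Kcnk5 encodes the leak channel of the proximal tubule's basolateral membrane that opens at alkaline pH. It was the most abundant member per length in every group, at 86.9 TPM ± 4.36 in control, then 80.7 ± 5.66 at day 2, 85.2 ± 3.56 at day 6 and 51.3 ± 0.784 at day 12. In CPM it was 152 ± 8.32, 135 ± 4.14, 124 ± 4.29 and 87.2 ± 2.74. The fall at day 12 was -0.80 ± 0.06 on the log2 scale (adjusted p = 1.70e-13), and from day 6 to day 12 it was -0.51 ± 0.06 (adjusted p = 1.07e-07). The small falls at day 2 (-0.16, adjusted p = 0.0464) and day 6 (-0.29, adjusted p = 7.98e-05) depended on the setting. At day 2 the call was lost in 18 of 20 alternatives, adjusted p running from 0.0170 to 0.378, and among the left-out libraries it held only without control A. At day 6 it was lost on TPM, where the change was -0.03, with adjusted p from 2.93e-05 to 0.782 over the alternatives.

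Among the voltage-gated pore-forming genes, Kcnh3, Kcnh7 and Kcnq1 were among those lower by day 12, and Kcnh2, Kcnd1 and Kcna7 were not called there. Kcnh7 encodes a channel of the ether-a-go-go-related type. It had 36.3, 33.9 and 30.4 CPM in control and 34.3, 29.5 and 28.8 at day 2, then 11.8, 16.0 and 13.7 at day 6 and 11.7, 10.1 and 7.81 at day 12. Day 2 overlapped control, and days 6 and 12 lay below both. The log2 fold change was -1.28 ± 0.12 (SE) at day 6 (adjusted p = 9.98e-11) and -1.77 ± 0.13 at day 12 (adjusted p = 8.59e-14). Kcnh3, of the related elk type, had 6.57, 8.44 and 5.85 CPM in control and 6.26, 7.48 and 4.95 at day 2. It had 1.39, 1.77 and 0.667 at day 6 and 0.583, 1.12 and 1.64 at day 12. As with Kcnh7, day 2 overlapped control and both later days lay below. On the log2 scale the change was -2.38 ± 0.30 at day 6 (adjusted p = 2.10e-08) and -2.59 ± 0.30 at day 12 (adjusted p = 5.58e-09).

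Kcng1 and Kcng3 encode silent subunits, which make no channel alone and join other voltage-gated subunits. Kcng3 had 2.42, 2.77 and 2.93 CPM in control, then 0.680, 0.702 and 0.683 at day 2, 0.398, 0.221 and 0.533 at day 6 and 0.233, 0.112 and 0.308 at day 12. Every treated library lay below every control library. Its log2 fold changes were -1.96 ± 0.40 (SE), -2.80 ± 0.44 and -3.53 ± 0.48, with adjusted p of 3.34e-04, 1.52e-06 and 1.23e-07. Kcng1 had 1.27, 1.11 and 1.25 CPM in control and 1.22, 1.17 and 0.512 at day 2, then 0.0994, 0.221 and 0.667 at day 6 and 0, 0.112 and 0.103 at day 12. Libraries of days 6 and 12 lay below control, but library C of day 6 lay above library C of day 2. Control held 31 counts and day 12 held 2, 16.6 times as many per scaled library (95% counting interval 4.21 to 143), and the fall there had an adjusted p of 9.23e-05. At day 6 the log2 fold change was -1.95 ± 0.60 (adjusted p = 0.00586). Without library C of that day it was -2.84, and without library A it was -1.48 and missed the threshold, at 0.0564, with 0.00208 to 0.0619 over the alternatives.

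Kcnq1, a slow delayed rectifier of epithelia and heart, had 3.80, 5.12 and 4.70 CPM in control and 6.39, 5.61 and 6.23 at day 2. It had 3.28, 3.54 and 4.27 at day 6 and 1.17, 1.68 and 2.47 at day 12. All day 2 libraries lay above control, day 6 overlapped control, and day 12 lay below all other groups. The day 12 log2 fold change was -1.33 ± 0.27 (adjusted p = 6.97e-05), and those of day 2 (0.44, adjusted p = 0.182) and day 6 (-0.30, adjusted p = 0.288) did not pass.

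Kcnh2, the ether-a-go-go-related channel that repolarises the heart, ranked behind Kcnk5 alone at days 2, 6 and 12, with 32.7 TPM ± 3.47 in control and 33.6 ± 2.91 at day 12. Its CPM was 62.1 ± 0.692 in control, then 74.7 ± 8.32 at day 2, 60.9 ± 4.80 at day 6 and 58.3 ± 2.97 at day 12. The rise at day 2, 0.25 ± 0.08 on the log2 scale (adjusted p = 0.0234), was lost in 6 of 20 alternatives. Among these were the fits without control B, control C, day 2 A or day 2 B, and adjusted p ran from 0.00134 to 0.183. At day 12 the change was -0.09 ± 0.08 (adjusted p = 0.349). Kcnd1, an A-type channel, stayed between 11.9 CPM ± 1.75 in control and 14.2 ± 1.72 at day 2, with adjusted p of 0.291, 0.936 and 0.528 on the 3 days. Kcna7, a Shaker-type channel, had 0.346, 0.969 and 0.105 CPM in control and 1.07 ± 0.255 at day 12. Its log2 values of 1.22, 1.08 and 1.26 did not pass (adjusted p = 0.157, 0.121 and 0.0632). Without control B, the highest control library, all 3 passed, at 2.16, 2.03 and 2.20 (adjusted p = 0.0362, 0.0211 and 0.0108), and over all alternatives adjusted p ran from 0.0362 to 0.513, from 0.0211 to 0.472 and from 0.0108 to 0.323 on the 3 days.

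**Figure D3:**
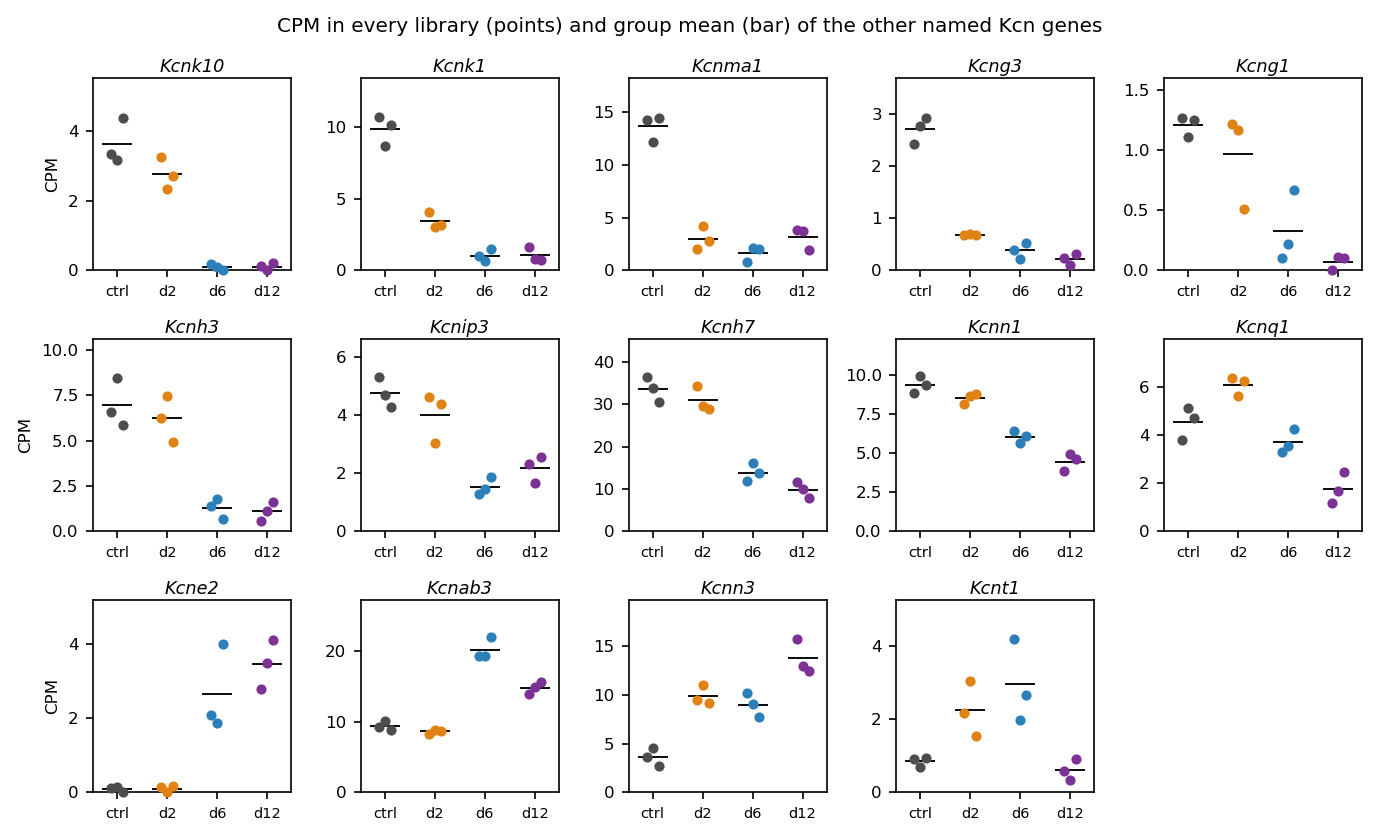
CPM in each library (points) and group mean (bar) for the 14 other members with a called change of at least 2-fold against control on any day, by control (ctrl), day 2 (d2), day 6 (d6) and day 12 (d12), each panel with its own linear axis from 0. The 10 genes in the upper rows are called lower against control at day 12, and in the bottom row Kcne2, Kcnab3 and Kcnn3 are called higher there while Kcnt1 is higher at days 2 and 6.

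Of the accessory subunit genes of voltage-gated channels, Kcne2 and Kcnab3 rose and Kcnip3 and Kcnab2 fell. Kcne2 encodes a small membrane subunit that joins the products of Kcnq1 and Kcnh2. It had 0.115, 0.138 and 0 CPM in control and 0.136, 0 and 0.171 at day 2. It had 2.09, 1.88 and 4.00 at day 6 and 2.80, 3.48 and 4.11 at day 12. All libraries of the later days lay above all those of control and day 2. Control held 2 counts, day 6 held 68 and day 12 held 95, ratios of 32.6 (95% counting interval 8.67 to 274) and 44.5 (12.0 to 372). The rises had adjusted p of 7.58e-08 and 3.86e-09. The fitted log2 fold changes were 4.81 ± 0.64 (SE) and 5.23 ± 0.60, or 4.21 and 4.63 without control C, whose count was 0. In TPM the ratio of Kcne2 to Kcnq1 was 0 to 0.0539 in the control libraries, 0.766 to 1.82 at day 6 and 3.23 to 4.83 at day 12.

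Kcnab3 and Kcnab2 encode cytoplasmic beta subunits of Shaker-type channels. Kcnab3 had 9.33, 10.1 and 8.88 CPM in control and 8.30, 8.89 and 8.71 at day 2, then 19.3, 19.3 and 22.0 at day 6 and 14.0, 14.9 and 15.6 at day 12. Days 6 and 12 lay above control and day 2, and day 12 below day 6. On the log2 scale, the value was 1.10 ± 0.13 (SE) at day 6 (adjusted p = 4.11e-09) and 0.66 ± 0.13 at day 12 (adjusted p = 6.05e-05), and from day 6 to day 12 it fell by 0.44 (adjusted p = 0.00620). Kcnab2 fell on each day, from 35.8 CPM ± 2.92 in control to 24.3 ± 0.749, 18.8 ± 2.25 and 20.0 ± 1.39. Its log2 fold changes were -0.55, -0.93 and -0.83 (SE 0.10 each), with adjusted p of 7.97e-05, 1.70e-09 and 1.23e-08. Kcnip3 encodes a calcium-binding protein that joins Kcnd channels. It had 5.30, 4.70 and 4.29 CPM in control and 4.62, 3.04 and 4.36 at day 2, then 1.29, 1.44 and 1.87 at day 6 and 2.33, 1.68 and 2.57 at day 12. Day 2 overlapped control, and the later days lay below both. The fitted log2 change was -1.65 ± 0.28 at day 6 (adjusted p = 5.03e-06) and -1.11 ± 0.26 at day 12 (adjusted p = 4.47e-04).

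Among the calcium-activated channels, the large-conductance gene fell while 2 of the 3 tested genes of smaller conductance rose. Kcnma1 encodes the large-conductance channel, which calcium and voltage open together. It had 14.3, 12.2 and 14.5 CPM in control, then 2.04, 4.21 and 2.82 at day 2, 0.795, 2.10 and 2.00 at day 6 and 3.85, 3.70 and 1.95 at day 12. Every treated library lay below every control library, and the treated days overlapped each other. The log2 fold changes were -2.26 ± 0.25 (SE), -3.10 ± 0.26 and -2.12 ± 0.23, with adjusted p of 1.02e-08, 1.00e-11 and 2.47e-09. The return from day 6 to day 12, 0.98 ± 0.32 (adjusted p = 0.0280), missed the threshold without day 6 A, day 12 A or day 12 B (0.223, 0.128 and 0.129). Over all alternatives its adjusted p ran from 0.00638 to 0.488. Kcnmb4, a beta subunit of the same channel, had 4.72 CPM ± 0.230 in control and 2.77 ± 1.16 at day 12, a fall of -0.76 ± 0.28 (adjusted p = 0.0215). It was lost without control A (0.0580) or day 12 A (0.160) and on TPM, with 0.00659 to 0.160 over the alternatives. Smooth muscle is known for this channel, and the summed smooth muscle and fibroblast markers were higher on the same days, as given above. Kcnmb1, the beta subunit typical of smooth muscle, had at most 2 counts in any library. A link of these values to the changes of Kcnma1 and Kcnmb4 was not tested.

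Kcnn3 and Kcnn1 encode small-conductance and Kcnn4 intermediate-conductance channels, all opened by calcium through calmodulin. Kcnn3 had 3.69, 4.57 and 2.72 CPM in control, then 9.52, 11 and 9.14 at day 2, 10.2, 9.06 and 7.74 at day 6 and 15.8, 13.0 and 12.5 at day 12. Every treated library lay above every control library, days 2 and 6 overlapped, and day 12 lay above both. Its log2 fold changes were 1.43 ± 0.20 (SE), 1.33 ± 0.19 and 1.93 ± 0.18, with adjusted p of 5.20e-07, 3.87e-07 and 4.12e-11. The rise from day 6 to day 12, 0.60 ± 0.16 (adjusted p = 0.00486), missed the threshold without day 12 A (0.0512), with 0.00176 to 0.165 over the alternatives. Kcnn1 had 8.87, 9.96 and 9.41 CPM in control, then 8.16, 8.65 and 8.80 at day 2, 6.46, 5.64 and 6.13 at day 6 and 3.85, 4.94 and 4.62 at day 12. The 4 groups did not overlap and each lay below the one before, but the day 2 value did not pass the test (log2 -0.14, adjusted p = 0.626). The fall was -0.63 ± 0.16 at day 6 (adjusted p = 0.00157) and -1.07 ± 0.17 at day 12 (adjusted p = 2.49e-06), and at day 6 it was lost on TPM (adjusted p from 0.00180 to 0.162 over the alternatives). Kcnn4 had 3.22 CPM ± 0.878 in control, 5.16 ± 0.536 at day 6 and 5.53 ± 1.53 at day 12. Its rises of 0.64 ± 0.24 (adjusted p = 0.0246) and 0.75 ± 0.24 (adjusted p = 0.00872) rested on a few libraries. The former was lost without control B (0.135) or day 6 C (0.0815), and the latter without control B (0.0632) or day 12 B (0.113). Over the alternatives the adjusted p ran from 0.0181 to 0.135 at day 6 and from 0.00519 to 0.113 at day 12.

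Kcnt1, which encodes a channel opened by intracellular sodium, was higher at days 2 and 6 than in control and fell again by day 12. It had 0.922, 0.692 and 0.941 CPM in control, then 2.18, 3.04 and 1.54 at day 2, 4.18, 1.99 and 2.67 at day 6 and 0.583, 0.337 and 0.924 at day 12. Days 2 and 6 lay above control and overlapped each other, and day 12 overlapped control. The log2 fold change was 1.77 ± 0.39 (SE) at day 6 (adjusted p = 2.58e-04), and from day 6 to day 12 it fell by 2.23 (adjusted p = 1.17e-04). On TPM the day 6 rise was 0.64 with 1 added and missed the threshold, with adjusted p from 4.40e-05 to 0.216 over the alternatives. The day 2 rise of 1.26 ± 0.43 (adjusted p = 0.0322) was lost in 8 of 20 alternatives, which include those without control A, B or C, day 2 A or day 2 B, with 0.0165 to 0.219 over all.

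Some of these genes overlap others in their exons. The sources used here do not state whether counting used strand, so reads of such partners cannot be told apart in the shared bases. In Kcnmb4, 20.8% of exon bases overlap Kcnmb4os2 on the opposite strand (1.64 to 3.31 TPM in control, 0.690 to 0.860 at day 12). Kcnh7 overlaps Gca over 4.57% of its exon bases and Kcnq1 overlaps Kcnq1ot1 over 2.96%.

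The make-up of the pool of Kcn transcripts changed with these genes. Summed over all 92 members, the level was 273 TPM ± 13.8 in control, then 219 ± 4.08 at day 2, 215 ± 7.87 at day 6 and 169 ± 6.82 at day 12. All treated libraries lay below all control libraries, and day 12 below all others. Kcnj16 made up 14.4% ± 1.03 of the sum in control, a mean of 2.3% at day 2, 0.123% ± 0.0114 at day 6 and 0.320% ± 0.268 at day 12. Kcnk5 made up 31.8% ± 0.420, 36.8% ± 1.98, 39.6% ± 0.958 and 30.4% ± 1.65, and Kcnh2 11.9% ± 0.672, 17.6% ± 1.59, 17.2% ± 1.41 and 19.9% ± 1.08. By mean TPM the order in control was Kcnk5, Kcnj16, Kcnh2 and Kcnab2 for the first 4. The libraries of Kcnj16 and Kcnh2 overlapped in control, and the other neighbours among these did not. At day 12 the order was Kcnk5, Kcnh2, Kcnab2 and Kcnab3, with no overlap between neighbours. Kcnab3 went from 2.48% ± 0.359 of the sum to 6.29% ± 0.574, and Kcne2, Kcnj2 and Kcnn3 each stood between 1.80% and 2.26% at day 12. All inward rectifiers together took 16.7% ± 0.825 in control and 6.34% ± 0.595 at day 12.

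**Figure D4:**
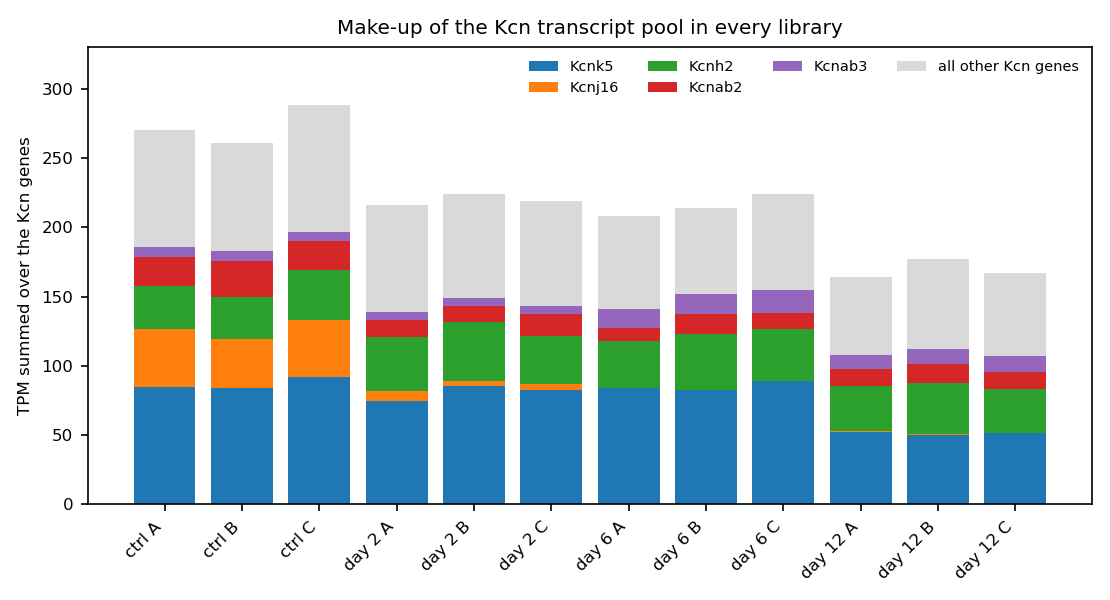
TPM summed over the 92 Kcn genes in each library, stacked by gene for Kcnk5, Kcnj16, Kcnh2, Kcnab2 and Kcnab3, with all others in grey. The Kcnj16 band goes from 14.4% of the sum in control to 0.123% at day 6, and the whole bar from a mean of 273 TPM in control to 169 at day 12.

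The 65 members below the filter had low counts, with at most 12 in a library. No count was found in any library for 24 of them, which allows at most 0.129 CPM over any group (3 counts, counting error only). Among these 24 were Kcnj1, the secretory channel of the thick limb and collecting duct, Kcnj12, Kcna10 and Kcnk2. Another 34 had 1 to 25 counts over the 12 libraries, among them Kcnj15 and Kcne1, with at most 2 and 3 counts in a library. The other 7 were Kcnk7, Kcnip4, Kcnj11, Kcnip2, Kcnc1, Kcnab1 and Kcnf1, with at most 12 counts in a library and 75 in all. Kcng1, which passed, had 61 counts in all, so the filter does not divide detected from undetected genes. Of 15 Kcnj genes 4 passed the filter, of 14 Kcnk genes 3, of 8 Kcna genes 1 and of 8 Kcnh genes 3, and none did in Kcnf, Kcns, Kcnu and Kcnv. Kcnf1, a silent subunit, was chosen here after its values were seen. It had 9, 9 and 10 counts at day 12 and 0 to 2 in each other library, and it was called higher at day 12 where no filter was applied.

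**Figure D5:**
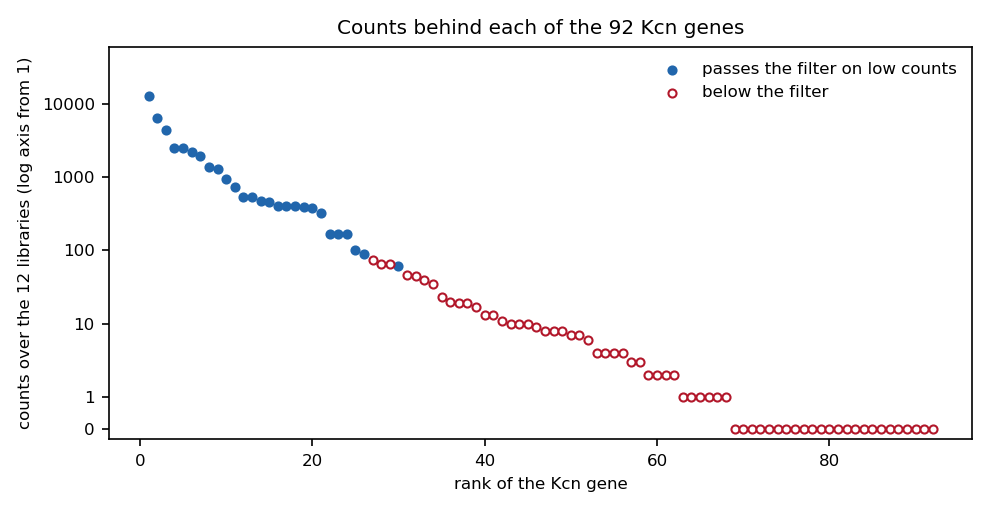
Counts summed over the 12 libraries for each of the 92 Kcn genes in order of rank, on an axis that is logarithmic from 1, with filled points for the 27 that passed the filter and open points for the 65 that did not. The open points reach up to 75 counts, and 24 of them lie at 0.

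Channel partners with other names and the transporters that move potassium the other way were examined beside the channels. Of 25 listed partners, 16 were tested, and 2 were higher and 5 lower at day 2, 3 and 6 at day 6, and 3 and 5 at day 12. Together these were 43.8% of the tested partners at day 2, 56.2% at day 6 and 8 of 16 at day 12, where 21.2%, 54.3% and 52.8% of all tested genes were called, so days 6 and 12 were near the share over all genes. Sgk1, a kinase that raises the surface level of several channels, went from 9.63 CPM ± 0.311 in control to 40.6 ± 8.83, 32.0 ± 2.87 and 44.2 ± 3.26 (log2 fold change 2.19 at day 12, adjusted p = 1.11e-13). Ank3, an ankyrin that anchors channels and the sodium pump at the lateral membrane, fell from 191 ± 2.89 to 76.1 ± 2.44 at day 12 (log2 fold change -1.33, adjusted p = 3.67e-19), and the scaffold gene Magi1 from 66.1 ± 0.902 to 38.5 ± 2.78 (adjusted p = 1.14e-10). The hyperpolarisation-activated channel genes differed among themselves. Hcn2 fell by 1.21, 1.48 and 1.18 on the log2 scale on the 3 days (adjusted p of 2.94e-08 at day 12). Hcn3 fell at day 12 by 1.46 (adjusted p = 6.95e-04), and Hcn4 was higher at day 2 alone of the 3 days, by 0.92 (adjusted p = 5.86e-04).

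Of 30 potassium pumps, cotransporters and their regulators, 16 were tested, and 6 were higher and 4 lower at day 2, 5 and 5 at day 6, and 5 and 5 at day 12. This was 62.5% on each day, again against 21.2%, 54.3% and 52.8% of all tested genes, so days 6 and 12 were not far from the share over all genes. Slc12a2, the sodium-potassium-chloride cotransporter of most cells, rose from 132 ± 5.72 to 354 ± 14.1 at day 6 and 395 ± 5.12 at day 12 (log2 fold change 1.59, adjusted p = 7.31e-23). Slc12a7, a potassium-chloride cotransporter, rose from 135 ± 2.77 to 243 ± 2.31 at day 6 (adjusted p = 1.64e-15). Of the 6 tested kinase genes that regulate these cotransporters, 3 fell at day 12, Wnk2 by 2.53 (adjusted p = 1.65e-12), Stk39 by 0.89 (adjusted p = 1.84e-08) and Wnk4 by 0.33 (adjusted p = 4.43e-04). Wnk1, Wnk3 and Oxsr1 did not pass there, with log2 values of -0.08, 0.29 and -0.12 (adjusted p = 0.234, 0.0687 and 0.245). Fxyd5, a small regulator of the pump, rose by 1.31 at day 12 (adjusted p = 3.84e-04).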

How the data were processed

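The 12 libraries are bulk sequencing of polyA RNA from PT-22 cells in 4 groups. The tools named in the submitters' processing notes are RSEM 1.3.3, STAR 2.7.8a, cutadapt 2.3 and FastQC 0.11.8, and the build is GRCm38. The annotation release, strand use and filters are not given in the sources used here. The authors deposited expected counts per gene as whole numbers without normalization. The deposited TPM values were made by the authors, per transcript length. Each library had 34 to 60 genes with a TPM above 0 and a count of 0. Columns not used numbered 0. Replicates were compared before use: the chi-square per degree of freedom was 2.16 to 8.02, so no library was a copy of another.

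Members were matched by symbol, and all 92 were found in GENCODE M21 under the same symbol. Testing used edgeR 4.0.16 in R 4.3.3. Genes were filtered with filterByExpr by group, which left 13513, libraries were scaled with TMM, and the groups of all 12 libraries entered a robust quasi-likelihood fit, which left 8 residual degrees of freedom and a common dispersion of 0.0577 as a coefficient of variation. Tests were two-sided with Benjamini-Hochberg adjustment over the 13513 genes, and 0.05 was the threshold. The steps were tested on simulated data. Where a group had 3 counts or fewer, the ratio of counts has an exact 95% interval, which covers counting error only. Levels of different genes were compared in TPM. Members with a called change of at least 2-fold against control on any day are given in every library (17), and the other 10 tested members as group values or in the libraries that decide a call. Some tested members and 1 list gene are not reported here by name and remain in the counts.

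Alternatives were DESeq2 1.42.0, size-factor scaling, no filter, a filter of 1 CPM in 3 libraries, limma 3.58.1 on log2(TPM + 1) and log2(TPM + 0.1), the libraries of the 2 groups alone, a replicate block, and leaving out each library. The members, lists and tests were chosen with earlier results of these data known. The lists were channel partners, potassium pumps and cotransporters, and markers of proximal tubule, thick limb and distal tubule, collecting duct, fibroblasts and smooth muscle, endothelium, leukocytes and neurons. No protein sequences were used.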

Additional observations from a re-analysis of the deposited data

Results flagged for a closer look

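The 4 members below had values against control on opposite sides of 0 at successive days, with a called difference between those days (edgeR quasi-likelihood test). Kcnab3 went from a log2 value of -0.13 at day 2 to 1.10 at day 6, a difference of 1.22 (adjusted p = 1.83e-09), and each library of day 6 lay above each of day 2. Kcnq1 went from 0.44 to -0.30, a difference of -0.74 (adjusted p = 0.00867). Kcnh2 went from 0.25 to -0.03, a difference of -0.28 (adjusted p = 0.00460). Kcnt1 went from 1.77 at day 6 to -0.46 at day 12, a difference of -2.23 (adjusted p = 1.17e-04). Against control, Kcnab3 at day 2 (adjusted p = 0.615), Kcnh2 at day 6 (0.757) and Kcnt1 at day 12 (0.482) were not called. Kcnq1 was called against control neither at day 2 (0.182) nor at day 6 (0.288). No member was thus called on both sides of control. On TPM the differences of Kcnq1 and Kcnh2 between days 2 and 6 missed the threshold, with adjusted p up to 0.230 and 0.686 over the alternatives, and that of Kcnt1 missed it with 1 added, at 0.0594. The compared days share no library with each other, but each is read here against the same control libraries.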

How the results depend on the processing

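Of 1560 values under the alternatives for called changes of single members, 1462 kept the call, 98 lost it and 0 changed direction. Of 1140 values for changes that were not called, 8 gained a call and 38 changed sign without one. The limits are depth, 3 libraries a group and the scale. With limma on TPM, the number of members higher at day 2 was 1 (3 on counts) with either pseudocount, and the number lower at day 6 against day 2 was 7 with 1 added and 6 with 0.1 added (13 on counts). For day 12 against day 6, TPM gave 1 and 0 higher (3 on counts) and 3 lower with 1 added (5 on counts). The shift of the median of all genes between days 2 and 6 was 0.12 and 0.13 on these scales. Leaving out each library in turn gave 1 to 3 higher and 6 to 7 lower at day 2, 6 to 8 and 13 to 14 at day 6, and 5 to 6 and 15 to 16 at day 12. It gave 3 to 4 higher and 11 to 14 lower for day 6 against day 2, 1 to 3 and 4 to 5 for day 12 against day 6, and 22 to 23 differing across groups. The lowest count at day 2, 1 higher, came without control C, day 2 A or day 2 B, and that for day 12 against day 6, 1 higher, without day 12 A. The cause of these differences was not tested. With no filter 68 members were tested, and Kcnip4 (day 6) and Kcnf1 (day 12) were also called higher. The letters A, B and C were shared by the groups but did not pair libraries: same-letter correlations ran from -0.149 to 0.111, and 3 of 12 libraries correlated best with their own letter. The replicate block gave 3 higher and 7 lower at day 2, 7 and 14 at day 6, 6 and 16 at day 12, and 24 differing across groups.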
